A study of Mus musculus with 6 samples.

Results

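The 10 genes described here are used as markers of GABAergic interneurons: Gad1, Gad2, Pvalb, Sst, Vip, Npy, Cck, Calb2, Lhx6 and Nxph1. They were chosen by name, through the Ensembl identifiers that carry these symbols, and each was found once among the 78298 genes of the table. All 10 were above the filter on low values, a mean of 10 normalised counts over the libraries, which 17391 genes passed. The libraries came from polyadenylated RNA of the whole left brain, 1 library for each male mouse. There were 3 Top2b-low mice, homozygous for a CRISPR/Cas9 allele that adds an auxin-inducible degron tag to the 5′ end of the coding sequence of Top2b, and 3 wild-type mice. No mouse was given a compound. The sample labels give an age of 10 weeks and the series text 3.5 months. Replicate 3 of each genotype has a library name that begins with N22, and the names of the other 4 begin with X or NT. The Top2b-low library of the N22 pair is named dNdN where the other 2 are named Homo, and the labels do not explain this.

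GABAergic neurons make the inhibitory transmitter GABA from glutamate with 2 glutamate decarboxylases, which Gad1 and Gad2 encode. In the cortex and hippocampus most of them are interneurons, which fall into subclasses known by the calcium-binding protein parvalbumin (Pvalb), by somatostatin (Sst) or by vasoactive intestinal peptide (Vip), with neuropeptide Y, cholecystokinin and calretinin (Calb2) in overlapping sets. Lhx6 is a transcription factor of interneurons from the medial ganglionic eminence, which become the parvalbumin and somatostatin cells, and Nxph1 encodes a secreted ligand of neurexins that interneurons make. Most of these genes are also known from other brain cells. Purkinje cells and striatal projection neurons are GABAergic, Purkinje cells contain parvalbumin, cerebellar granule cells contain calretinin, cortical excitatory neurons make cholecystokinin, and hypothalamic neurons make somatostatin, neuropeptide Y and vasoactive intestinal peptide. In bulk tissue fewer cells of a type and less RNA per cell cannot be told apart.

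Normalised counts are reads divided by a size factor of the library, and a gene is called here when limma's test on log2(normalised count + 1) gave a Benjamini-Hochberg adjusted p under 0.05. Of the 10 genes, 8 differed by library name past that threshold, as did 28.0% of all tested genes. By genotype 0 of the 10 did, and 0% of all tested genes. In the N22 libraries Sst, Vip, Npy, Cck and Lhx6 were higher and Pvalb, Calb2 and, by a smaller amount, Gad2 lower than in the other 4 libraries. No member differed between Top2b-low and wild-type mice past the threshold. The Top2b-low values of Gad2 and Nxph1 all lay under the wild-type values, with mean differences of −12.1% and −13.2%, and neither difference passed the test.

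The recovered reads per library ran from 16963067 to 35246703, and the N22 libraries were the deepest, at 35246703 and 28629911. The members had between 179 reads (Lhx6) and 15273 reads (Gad1) in a library. Top2b, the targeted gene, counted 2152, 2314 and 1965 in Top2b-low replicates 1 to 3 and 3160.4, 3014 and 2485 in wild type replicates 1 to 3. Its log2 difference between genotypes was −0.42, and the main fit did not call it (limma adjusted p = 0.99997). Of the alternatives, only DESeq2 called it, with the replicate number as a block (adjusted p = 0.00063) or with an N22 term (adjusted p = 3.4e-05). The DESeq2 fit with an N22 term was added after seeing the data. The defining genes of the cerebellum were near 0 in the N22 libraries. Gabra6, the GABA receptor subunit of granule cells, had 1 read in each of them and averaged 2119 normalised counts in the other 4. The Purkinje cell gene Pcp2 averaged 9.0 in the N22 libraries and 882 in the others, Cbln3 13.6 and 5753, and Fat2 4.98 and 3124. Of 18 cerebellar markers 17 were called lower, where 16.7% of all tested genes were, and 1, Pcp4, higher, where 11.3% were. Their summed level ran from 27539.7 to 31719 in the N22 libraries and from 68185 to 80344 in the other 4. Of 9 hindbrain and glycinergic markers 6 were at 0 in both N22 libraries, and all 6 with a mean above the filter were called lower. The label gives the tissue as whole left brain in all 6.

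**Figure D1:**
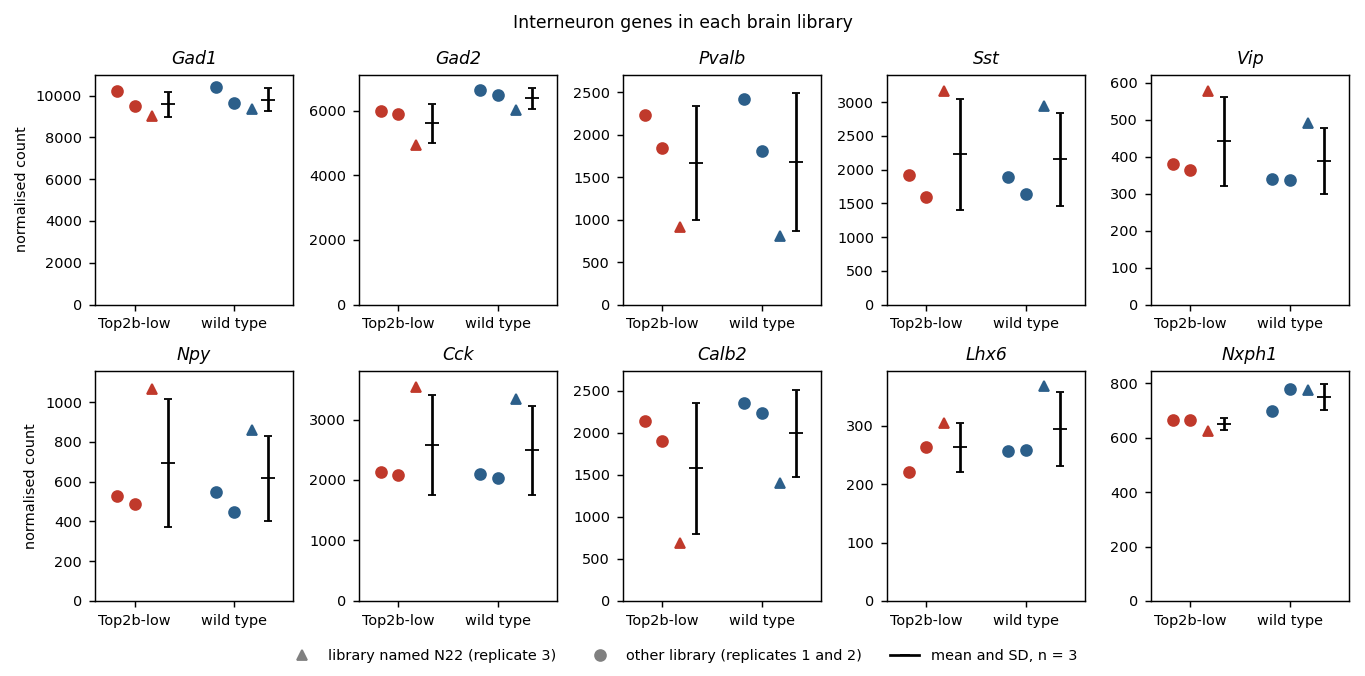
Normalised count (linear axis from 0) of each of the 10 genes in each library, Top2b-low left of wild type. Triangles are the N22 libraries, circles the other libraries, and bars the mean and SD of 3 libraries. In both genotypes Sst, Vip, Npy, Cck and Lhx6 are highest and Pvalb and Calb2 lowest in the N22 library.

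Levels between genes were compared per kilobase of exon, from the exons of the GENCODE vM21 annotation. In the N22 libraries Sst stood highest at 4080 to 4384 normalised counts per kb, followed by Cck at 2563 to 2707 and Npy at 1515 to 1886. Gad1 (1183 to 1222) and Gad2 (838 to 1026) came next, then Pvalb at 773 to 883 and Calb2 at 395 to 803. The ranges of Gad2 and Pvalb overlapped, as did those of Pvalb and Calb2. Vip (145 to 170.3) and Nxph1 (132 to 163) overlapped too, and Lhx6 was lowest at 63.4 to 76.5. In the other 4 libraries Sst was again first, at 2217 to 2668, but Pvalb came next at 1740 to 2327, and their ranges overlapped. Cck followed at 1562 to 1634, outside the range of Sst and of Pvalb. Gad1 (1241 to 1363), Calb2 (1092 to 1347) and Gad2 (1002 to 1129) overlapped as neighbours in the order. Npy (791 to 968), Nxph1 (139 to 164), Vip (99.1 to 112) and Lhx6 (45.8 to 54.8) followed without overlap. Npy thus held rank 3 of 10 in the N22 libraries and rank 7 in the others, and Pvalb rank 6 and rank 2. These levels depend on the annotated exon length, which counts rare exons in full.

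**Figure D2:**
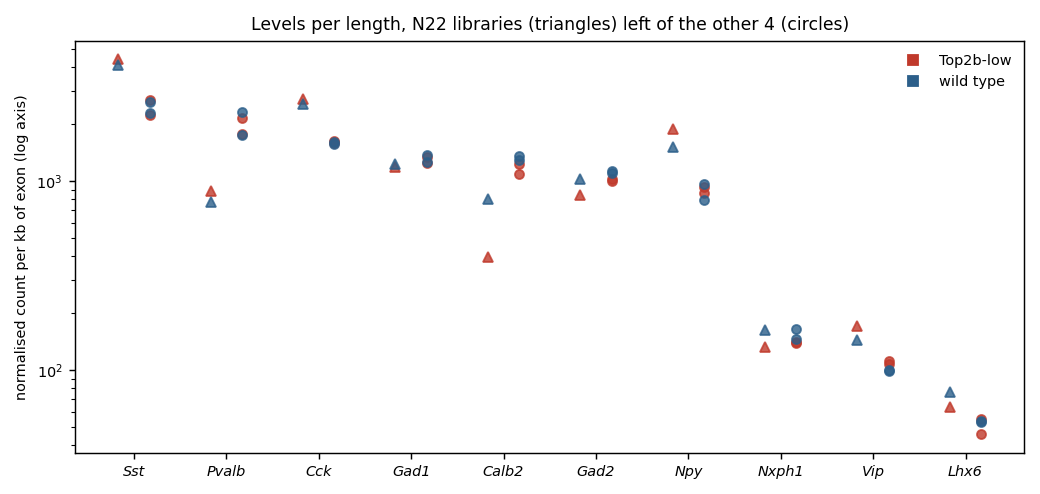
Normalised count per kb of exon (log axis) of the 10 genes, ordered by their mean in the 4 libraries outside N22. For each gene the N22 libraries (triangles) are left of the other 4 (circles), red for Top2b-low and blue for wild type. Npy moves up in the N22 libraries, and Pvalb and Calb2 move down.

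Of the 2 decarboxylase genes, Gad1 RNA varied less between the 6 libraries (SD 0.08 log2 units) than Gad2 RNA (SD 0.15). Gad1 (ENSMUSG00000070880, chromosome 2), which makes most of the GABA of the adult brain, counted 10198, 9482 and 9036 in Top2b-low replicates 1 to 3 and 10409, 9639 and 9334 in wild type replicates 1 to 3. In each genotype the N22 library was the lowest, and the genotypes overlapped. The means were 9572 ± 586 in Top2b-low and 9794 ± 554 in wild-type mice (SD, n = 3 each). The 95% interval of the genotype difference ran from −14% to 11.0%. In N22 minus the other libraries the log2 difference was −0.11 (SE 0.06, limma adjusted p = 0.193).

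Gad2 (ENSMUSG00000026787, chromosome 2), whose enzyme sits at axon terminals and supplies GABA for release, counted 6001, 5889 and 4923 in Top2b-low mice and 6632, 6468 and 6026 in wild-type mice. The genotypes did not overlap, the lowest wild-type value being just above the highest Top2b-low value. The means were 5605 ± 593 and 6375 ± 313 (SD, n = 3 each), a log2 difference of −0.19 (SE 0.10) with a 95% interval from −24.9% to 2.29%. Limma gave an unadjusted p of 0.0839 and an adjusted p of 0.99997, and the two-sided exact permutation test p = 0.1, the smallest that 3 against 3 allows. The Top2b-low mean differed from the wild-type mean by −9.23% outside N22, and the N22 pair, 1 library each, by −18.3%. Without Top2b-low replicate 3, which leaves the wild-type N22 library without its counterpart, the log2 difference was −0.10. The genotype difference was called under no alternative run, where its lowest adjusted p was 0.515, with the replicate number as a block.

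Gad2 was also called lower in the N22 libraries, by −0.20 on the log2 scale (SE 0.06, limma adjusted p = 0.0303), though the wild-type N22 library lay within the range of the other 4. That call ended in 9 of 16 alternatives. Without Top2b-low replicate 1 or 3 or wild type replicate 1 or 3 in turn, the adjusted p was 0.0642, 0.356, 0.0720 and 0.0543. Without Top2b-low replicate 3 the difference was −0.12.

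The Gad1 to Gad2 ratio within a library does not move with the scaling between libraries. It was 1.70, 1.61 and 1.84 in Top2b-low mice and 1.57, 1.49 and 1.55 in wild-type mice. Each Top2b-low library stood above each wild-type library, and the highest ratio was that of the Top2b-low N22 library. The ratio holds the same Gad2 values, which did not overlap between genotypes, so it is not a separate observation. No test was run on the ratio. On the log2 scale the means were 0.78 ± 0.09 in Top2b-low and 0.62 ± 0.04 in wild-type mice (SD, n = 3 each). These are ratios of counts, not of molecules, since the genes differ in length.

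Of the calcium-binding proteins, parvalbumin was low in both N22 libraries. Pvalb (ENSMUSG00000005716, chromosome 15), the marker of fast-spiking interneurons and also of Purkinje cells, counted 919 and 805 in the Top2b-low and wild-type N22 libraries. In the other 4 it counted 2236 and 1845 in Top2b-low and 2422 and 1811 in wild-type mice. The N22 libraries did not overlap the other 4. The log2 difference was −1.26 (SE 0.12, limma adjusted p = 7.3e-05), a level 0.42 times that of the other libraries with a 95% interval from 0.35 to 0.50. The genotypes overlapped, with means of 1667 ± 676 in Top2b-low and 1679 ± 816 in wild-type mice (SD, n = 3 each). The Top2b-low mean differed from the wild-type mean by −3.59% outside N22, and the N22 pair by 14.2%.

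Calb2 (ENSMUSG00000003657, chromosome 8), which encodes calretinin, counted 689 and 1399.6 in the Top2b-low and wild-type N22 libraries, against 2133 and 1904 in Top2b-low and 2348 and 2235 in wild-type mice outside N22. The Top2b-low N22 library was the lowest of the 6 and the wild-type N22 library the next lowest. In N22 minus the other libraries the log2 difference was −1.13 (SE 0.15, limma adjusted p = 0.000575), and without Top2b-low replicate 3 it was −0.71 (adjusted p = 0.00346). The genotype means were 1575 ± 776 in Top2b-low and 1994 ± 518 in wild-type mice (SD, n = 3 each), with a log2 difference of −0.46 (SE 0.42). Without Top2b-low replicate 3, which leaves the low wild-type N22 library without its counterpart, it was 0.05. Outside N22 both Top2b-low values lay under both wild-type values, at a log2 difference of −0.18 (limma adjusted p = 0.947).

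The genotype difference of Calb2 was −50.8% in the N22 pair, 1 library each, and −11.9% outside it. Limma's test of that difference between differences, whose spread comes from the 4 libraries outside N22 alone, gave −0.84 on the log2 scale (SE 0.14, unadjusted p = 0.000221, adjusted p = 0.201), and DESeq2 an adjusted p of 0.0154. By limma 4 genes, 0.0230% of those tested, were called in this test, and no member was among them. They were Ppp1r17, Slc6a3, Zfp968 and ENSMUSG00000121777, named here after their values were seen. No hypothalamic marker was called between genotypes, and their summed level was low mainly in Top2b-low replicates 2 and 3. The summed level of the 12 hypothalamic markers was 1468, 267 and 305 in Top2b-low replicates 1 to 3 and 1615, 1696 and 2667 in wild type replicates 1 to 3, and all 11 above the filter were lower in Top2b-low mice. Their part in the Calb2 difference was not tested.

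The 4 neuropeptide genes were all higher in the N22 libraries, in both genotypes. Sst (ENSMUSG00000004366, chromosome 16), the peptide of dendrite-targeting interneurons, counted 3161 and 2941 in the Top2b-low and wild-type N22 libraries. It counted 1923 and 1599 in Top2b-low and 1889 and 1639 in wild-type mice outside N22. The N22 level was 1.74 times that of the other libraries (95% interval 1.52 to 1.98, limma adjusted p = 0.000198). Outside N22 the 2 genotypes overlapped.

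Npy (ENSMUSG00000029819, chromosome 6), the peptide of neurogliaform and many somatostatin cells, had the largest rise of the 10 genes. It counted 1067 and 858 in the Top2b-low and wild-type N22 libraries, against 527 and 489 in Top2b-low and 548 and 447 in wild-type mice outside N22. The N22 level was 1.91 times that of the others (95% interval 1.63 to 2.23, adjusted p = 0.000202).

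Cck (ENSMUSG00000032532, chromosome 9), the peptide of a class of basket cells and of many excitatory neurons, counted 3533 and 3345 in the Top2b-low and wild-type N22 libraries. It counted 2133 and 2075 in Top2b-low and 2104 and 2038 in wild-type mice outside N22, the narrowest spread relative to the mean among the 10 genes there. Its N22 level was 1.65 times that of the others (95% interval 1.51 to 1.80, adjusted p = 2.2e-05).

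Vip (ENSMUSG00000019772, chromosome 10), the peptide of interneurons that inhibit other interneurons, counted 579 and 492 in the Top2b-low and wild-type N22 libraries. Outside N22 it counted 381 and 364 in Top2b-low and 339 and 337 in wild-type mice, and there both Top2b-low values were above both wild-type values. The N22 level was 1.5 times that of the others (95% interval 1.32 to 1.71, adjusted p = 0.000856). Between genotypes Vip averaged 442 ± 119 in Top2b-low and 389 ± 89.0 in wild-type mice (SD, n = 3 each), a log2 difference of 0.17 (SE 0.22, adjusted p = 0.99997).

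Between genotypes the values of Sst, Npy and Cck overlapped, as did those of Vip over all libraries. Sst averaged 2228 ± 824 in Top2b-low and 2156 ± 691 in wild-type mice, Npy 694 ± 323 and 618 ± 214, and Cck 2580.1 ± 826 and 2495 ± 736 (SD, n = 3 each). Outside N22 the Top2b-low means differed from the wild-type means by −0.167% for Sst, 2.08% for Npy and 1.59% for Cck. In the N22 pair the differences were 7.46%, 24.4% and 5.63%.

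The promoters of these 4 genes are shown as a description. The 4 were picked after their rise in the N22 libraries was seen, and 11.3% of all tested genes were called higher there. A link between promoter sites and the levels was not tested. Somatostatin is the gene in which the cyclic AMP response element, the site of the transcription factor CREB, was first described. The 250 bases before each RefSeq start were read from RefSeq sequence of build GRCm38.p6, at chr16:23890845-23891094 on the minus strand for Sst, chr10:5638968-5639217 on the plus strand for Vip, chr9:121495695-121495944 on the minus strand for Cck and chr6:49822460-49822709 on the plus strand for Npy. Each runs 5′ to 3′ on the gene's strand, and capitals mark the full element TGACGTCA and its half-site TGACG, searched on both strands.
Sst: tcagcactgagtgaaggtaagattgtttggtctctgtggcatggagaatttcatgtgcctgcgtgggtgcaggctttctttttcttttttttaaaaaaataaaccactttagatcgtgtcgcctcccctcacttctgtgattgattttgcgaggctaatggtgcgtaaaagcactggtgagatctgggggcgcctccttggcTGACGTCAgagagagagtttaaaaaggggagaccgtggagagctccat
Vip: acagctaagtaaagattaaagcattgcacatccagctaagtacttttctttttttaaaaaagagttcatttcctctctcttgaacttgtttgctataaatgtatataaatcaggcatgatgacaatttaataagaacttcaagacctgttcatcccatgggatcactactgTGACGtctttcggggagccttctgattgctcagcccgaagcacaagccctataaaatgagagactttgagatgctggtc
Cck: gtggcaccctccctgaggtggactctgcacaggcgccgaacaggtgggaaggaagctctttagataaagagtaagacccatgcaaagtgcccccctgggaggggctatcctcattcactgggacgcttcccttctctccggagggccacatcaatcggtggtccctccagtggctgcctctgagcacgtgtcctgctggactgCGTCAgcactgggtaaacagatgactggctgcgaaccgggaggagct
Npy: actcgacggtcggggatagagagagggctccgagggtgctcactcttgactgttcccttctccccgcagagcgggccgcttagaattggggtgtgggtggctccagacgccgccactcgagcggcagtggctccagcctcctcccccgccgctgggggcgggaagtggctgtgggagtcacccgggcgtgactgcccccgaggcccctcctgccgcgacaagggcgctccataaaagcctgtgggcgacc
Sst held the full element from base 48 to base 41 before the start. That element is its own reverse complement and so contains the half-site on both strands. Vip held a half-site from base 79 to base 75 on the gene's strand and Cck from base 47 to base 43 on the opposite strand, and Npy held none in this window. The full element was in 1.55% and the half-site in 17.8% of the 32851 promoter windows of the same length. RefSeq windows matched 9 of the 10 members. Gad2, called lower in the N22 libraries, held a half-site too, from base 33 to base 29 on the opposite strand. Lhx6, called higher there, held none at any of its starts, nor did Gad1, Pvalb and Nxph1.

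Lhx6 (ENSMUSG00000026890, chromosome 2), the transcription factor of parvalbumin and somatostatin cells, counted 220.3, 263 and 305 in Top2b-low and 256, 258 and 368 in wild-type mice. In each genotype the N22 library was highest. The N22 level was 1.34 times that of the others (95% interval 1.14 to 1.59, limma adjusted p = 0.0159), and the call ended without Top2b-low replicate 3 (adjusted p = 0.0767) and without wild type replicate 3 (adjusted p = 0.212). The genotype means were 263 ± 42.2 in Top2b-low and 294 ± 63.8 in wild-type mice (SD, n = 3 each).

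Nxph1 (ENSMUSG00000046178, chromosome 6), the neurexin ligand, did not follow the library name. It counted 664, 663 and 625 in Top2b-low and 696, 779.5 and 773 in wild-type mice, and the genotypes did not overlap. The means were 651 ± 22.1 and 749.5 ± 46.5 (SD, n = 3 each), a log2 difference of −0.20 (SE 0.09) with a 95% interval from −24.5% to 0.173%. Limma gave an unadjusted p of 0.0522 and an adjusted p of 0.99997, and the exact permutation test p = 0.1. The Top2b-low mean differed by −10% outside N22, and the N22 pair by −19.1%. The lowest adjusted p over the alternatives was 0.629, from edgeR with the replicate number as a block. In N22 minus the other libraries the log2 difference was −0.01 with a 95% interval from −0.18 to 0.17.

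Between genotypes 0 of the 10 members were called, as were 0% of the 17391 genes tested. Before adjustment, limma gave a p under 0.05 for 262 of the 17391 genes and 0 of the 10 members. With a term for N22 it did so for 1011 of the 17391 genes and 3 of the 10 members, Gad2, Calb2 and Nxph1. In that fit limma gave an unadjusted p of 0.00584 and an adjusted p of 0.617 for Gad2, 0.00735 and 0.648 for Calb2, and 0.0218 and 0.772 for Nxph1. With the replicate number as a block it did so for 1169 of the 17391 genes and the same 3 members. In the blocked fit limma gave an unadjusted p of 0.00574 and an adjusted p of 0.515 for Gad2, 0.0101 and 0.577 for Calb2, and 0.0213 and 0.639 for Nxph1. On the recovered reads edgeR and DESeq2 also called 0 genes, and 250 and 166 genes had such a p before adjustment. The sign of the difference was positive for 5 members and negative for 5, with a median log2 difference of −0.0010 against −0.0021 over all tested genes. The genotypes did not overlap for 2 of 10 members, Gad2 and Nxph1, and for 5.74% of all tested genes. With a term for N22 DESeq2 called 15 genes and no member. Of the hypothalamic markers, which belong to a region that also makes somatostatin, neuropeptide Y and vasoactive intestinal peptide, 9 of the 11 tested had an unadjusted p under 0.05 and the median log2 difference was −2.45. Excitatory markers were higher in Top2b-low mice for 11 of 12 genes (median 0.18) and striatal markers for 10 of 11 (median 0.19), with none called.

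**Figure D3:**
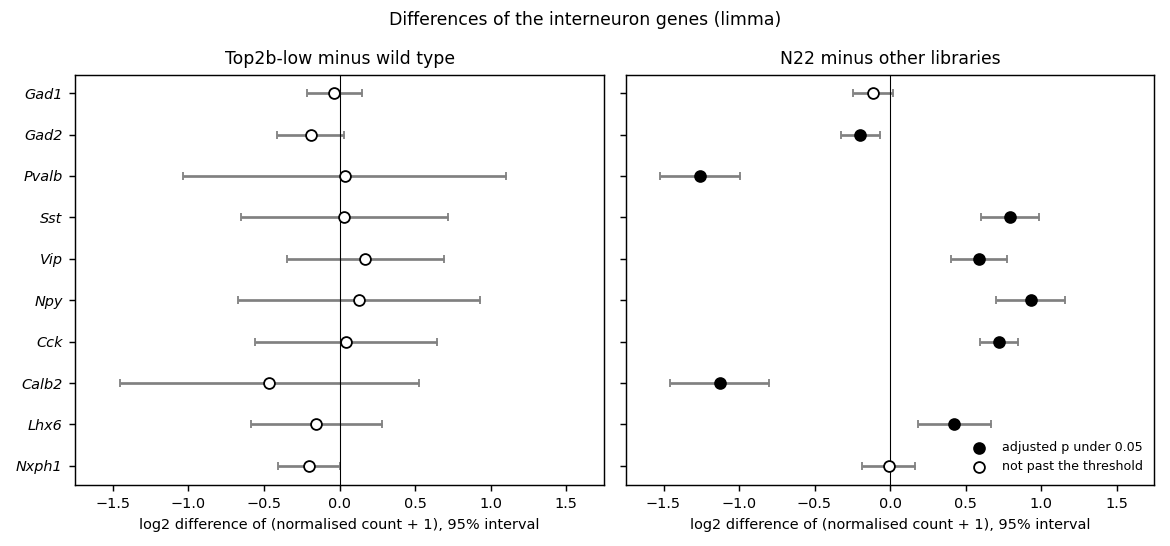
Log2 difference of normalised count + 1 with its 95% interval (limma) for the 10 genes, Top2b-low minus wild type on the left and N22 minus other libraries on the right. Filled points have an adjusted p under 0.05. No point is filled on the left, where intervals are wide for the genes that follow the N22 split, and 8 are filled on the right.

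In N22 minus the other libraries 5 of the 10 members were called higher, where 11.3% of all tested genes were, and 3 lower, where 16.7% were. Called in either direction were 8 of 10 members and 28.0% of the tested genes, that is 1963 higher and 2901 lower. On the recovered reads edgeR called 5132 genes and DESeq2 4083. With quantile normalisation 2438 genes were called higher and 2377 lower, and the direction of the 8 called members was the same under every alternative run. The N22 values did not overlap those of the other 4 libraries for 8 of 10 members (all but Gad2 and Nxph1) and for 49.3% of all tested genes. The two-sided exact permutation test over the 15 assignments of 2 libraries gave p = 0.0667, the smallest it can give, for Pvalb, Sst, Vip, Npy, Cck, Calb2 and Lhx6. Without Top2b-low replicate 3 or wild type replicate 3, which leaves 1 N22 library that is assumed to vary like the rest, 1702 and 1954 genes were called in place of 4864. Each genotype holds 1 N22 library, so genotype and library name are balanced, but tissue content, depth and anything else that set the N22 libraries apart cannot be told apart here.

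Ratios within a library set markers of the subclasses against each other. They do not measure the balance of subclasses, since Purkinje cells also contain parvalbumin and hypothalamic neurons also make somatostatin. The part of cerebellar RNA, which was low in the N22 libraries, in these ratios was not tested. Pvalb to Sst was 1.16, 1.15 and 0.29 in Top2b-low replicates 1 to 3 and 1.28, 1.1 and 0.27 in wild type replicates 1 to 3, so parvalbumin reads were above somatostatin reads outside N22 and far below them in the N22 libraries. On the log2 scale the ratio was −1.82 in the N22 libraries and 0.23 in the other 4. Vip to Sst moved less, at 0.199, 0.228 and 0.183 in Top2b-low mice and 0.180, 0.206 and 0.168 in wild-type mice. Lhx6 to Gad1 was highest in the N22 library of each genotype, and its log2 mean was −4.77 in the N22 libraries and −5.31 in the others. Nxph1 to Lhx6 was lowest there, at 2.05 and 2.10 in the Top2b-low and wild-type N22 libraries against 2.51 to 3.01 in the other 4. Apart from Gad1 to Gad2, the genotypes overlapped in each ratio.

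**Figure D4:**
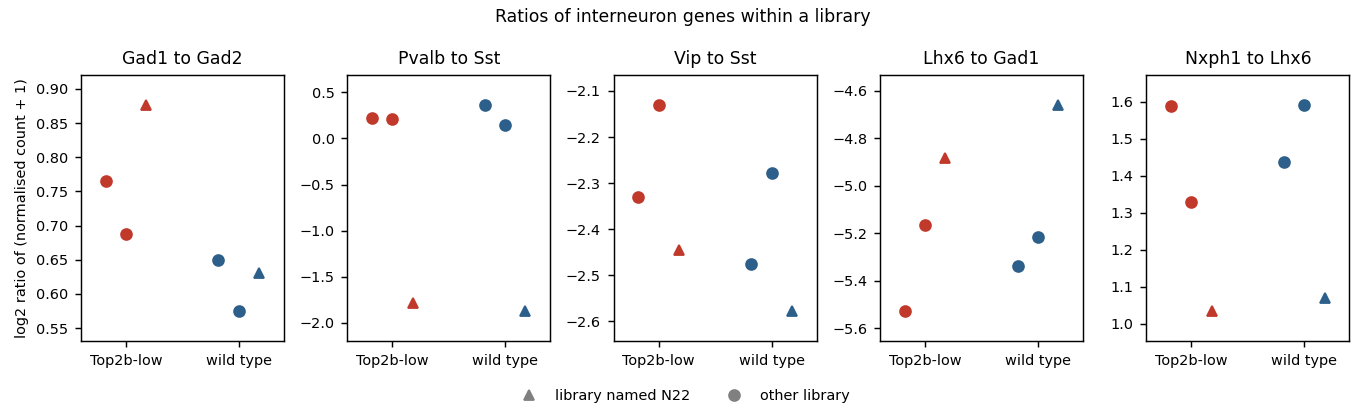
Log2 ratio of normalised count + 1 between 2 genes in each library, Top2b-low left of wild type, with triangles for the N22 libraries. Only Gad1 to Gad2 separates the genotypes among these 5 ratios, and Pvalb to Sst separates the N22 libraries by the widest gap.

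Other genes of these pathways and subclasses, in lists chosen by function, were read from the same fit. No member of any of these lists was called between genotypes. Beside GABA synthesis stand the genes of GABA transport and breakdown, of which 8 of 8 had a negative difference and 5 were called lower in the N22 libraries, where 16.7% of all tested genes were, with a median of −0.33. Among those called were the GABA transporter Slc6a13 (−0.49, limma adjusted p = 0.0210), the GABA transaminase Abat (−0.36), the next enzyme of that route Aldh5a1 (−0.30) and the chloride importer Slc12a2 (−0.46). The vesicular GABA transporter Slc32a1, which loads vesicles in all GABAergic neurons, was at −0.19 (adjusted p = 0.0587) and did not pass. Of 9 genes of the inhibitory postsynapse, among them gephyrin (Gphn, −0.02) and Nlgn2 (−0.15), limma called 0 (2 had an unadjusted p under 0.05) and the median was 0.02. The median over all tested genes was −0.0046.

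In each list of genes named for 1 subclass some were called higher and some lower, where 11.3% of all tested genes were called higher, 16.7% lower and 28.0% in either direction. The counts of the Vip and neurogliaform companions, 3 of 9 and 2 of 6 in either direction, were near that share. Of 11 companions of parvalbumin, 2 were called higher and 3 lower. Lower were the vesicle calcium sensor Syt2 (−1.43), the fast potassium channel Kcnc1 (−0.62) and aggrecan, Acan (−0.58), a part of perineuronal nets. Higher were Cox6a2 (0.99), a mitochondrial subunit enriched in parvalbumin interneurons, and the tachykinin gene Tac1 (0.36). Of 11 companions of somatostatin Crhbp (0.59), Rbp4 (0.57) and Elfn1 (0.26) were called higher, and Nos1 (−0.90) and Calb1 (−1.03), which Purkinje cells also make, lower. Of 9 companions of the Vip class the serotonin receptor Htr3a (0.78) and Igfbp6 (0.48) were higher and the cannabinoid receptor Cnr1 (−0.46) lower. Of 6 neurogliaform companions Lamp5 (0.42) was higher and reelin, Reln (−0.75), which granule cells of the cerebellum also secrete, lower. The medians of these 4 lists were 0.15, 0.11, 0.02 and −0.0009. Which cells or regions these differences came from was not tested, for any gene of the lists.

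Of 14 transcription factors of interneuron development, 4 were called higher and 3 lower in the N22 libraries, where 11.3% and 16.7% of all tested genes were. Among the higher were the forebrain homeobox genes Dlx1 (0.59) and Dlx6 (0.62) and the zinc finger gene Sp9 (0.53), and lower were Maf (−0.59), Nr2f2 (−0.48) and Prox1 (−0.36). Of 13 neuropeptide receptor genes 6 were called higher, where 11.3% of all tested genes were, and 0 lower, with a median of 0.31. Called were the somatostatin receptors Sstr1 (0.53), Sstr3 (0.35) and Sstr4 (0.50) and the neuropeptide Y receptor Npy1r (0.45). The cholecystokinin receptor Cckbr (0.42) and the VIP and PACAP receptor Vipr1 (0.31) were called as well. Sstr2 (0.08), Sstr5 (−0.24), Npy2r (0.31), Npy5r (0.10), Vipr2 (−0.39), Cckar (−0.08) and Adcyap1r1 (−0.14) did not pass. Of 6 relatives and partners of Nxph1, 3 were called lower and 0 higher, among them the neurexin Nrxn2 (−0.23) and the neurexophilin Nxph4 (−1.0).

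Markers of several other cell types also differed between the N22 and the other libraries, where 28.0% of all tested genes did. Of 12 markers of cortical and hippocampal excitatory neurons 6 were called higher and 1 lower, with a median of 0.24. The lower one was Prox1, which also stands among the interneuron transcription factors above. Fezf2 (0.78) and Emx1 (0.81) lay within the range of the 4 peptide genes. The summed level of the 12 markers ran from 79140.0 to 92324 in the N22 libraries and from 63205 to 76754 in the other 4. Of 11 striatal markers 7 were called higher, with a median of 0.25, and their summed level ran from 26145 to 27485 in the N22 libraries and from 21316 to 24415 in the others. Of 6 astrocyte markers 4 were called lower (median −0.34). Of 8 olfactory bulb markers, a region rich in calretinin neurons, 1 was called higher and 2 lower. Of 6 markers each, oligodendrocytes had 2 called lower, microglia 1 higher, and endothelial cells 1 higher and 3 lower, so that the shares of the oligodendrocyte and microglia markers were near or under that of all tested genes. Cerebellar markers had a median of −2.26 and hindbrain markers of −4.46. The part of these differences in the levels of the 10 genes was not tested.

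**Figure D5:**
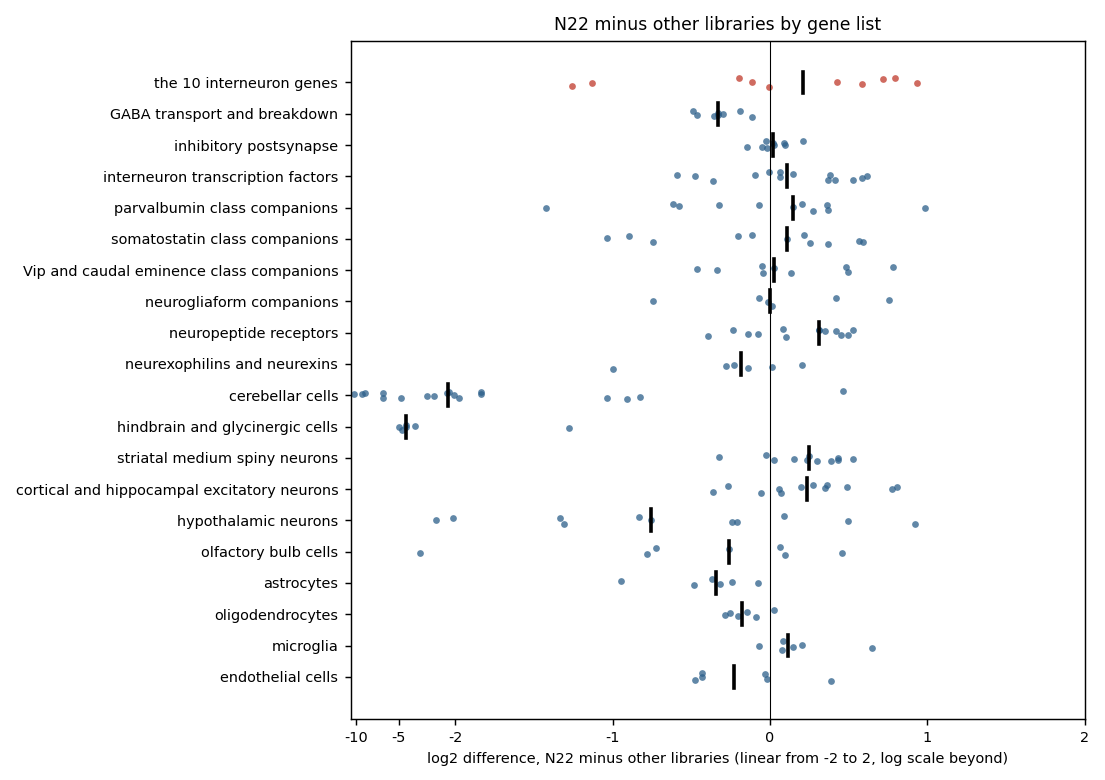
Log2 difference, N22 minus other libraries, of each gene in each list (points), with list medians as black bars; the axis is linear from −2 to 2 and logarithmic beyond. The 10 interneuron genes (red) spread from −1.26 to 0.93, cerebellar and hindbrain markers lie far to the left, and excitatory and striatal markers have medians of 0.24 and 0.25.

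For each member whose log2 values had an SD of at least 0.3 over the 6 libraries, the genes with the nearest profile were taken from 13421 others, by the root-mean-square difference of log2 values centred on their mean. Sst was nearest to Clspn, Uqcc2 and Arhgdig (0.04 to 0.05 log2 units). Cck was nearest to Ctxn1, Serp2 and Ppp1r1a (0.05), Vip to Ttc9b, C130074G19Rik and Stx1a (0.03 to 0.04), and Npy to Abhd12b, Hpca and Fxyd7 (0.06 to 0.08). Hpca, a calcium sensor of hippocampal and cortical neurons, counted 16383 and 12926 in the Top2b-low and wild-type N22 libraries and 7439.5 to 9233 in the other 4. Pvalb was nearest to Tspan9, 6430571L13Rik and Arhgef37 (0.12 to 0.14). Calb2 was nearest to Nxph4 (0.10), then to 3632454L22Rik and Ebf3 (0.12 and 0.13). Nxph4 counted 73.4 and 142 in the Top2b-low and wild-type N22 libraries, against 199 and 197 in Top2b-low and 229.6 and 196 in wild-type mice outside N22, so the Top2b-low N22 library was lowest for both genes. All 6 libraries share the N22 split, which many genes follow, so such likeness is a description.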

How the data were processed

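The values in the authors' deposited table are a signal: reads of a gene divided by a size factor of its library. RSEM and mm39 are named, per the submitters' processing notes; the aligner, the annotation and the use of strand were not given in the sources used here. Dividing each column by what 1 read is worth gave whole numbers for 100% of values (tolerance 1e-06 reads), and these recovered reads entered the count tests. The size factors equalled DESeq2's median ratios.

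Symbols came from GENCODE vM21 and matched 51498 of 78298 identifiers, which held at least 99.4% of the reads. That annotation and the RefSeq promoters are of GRCm38, so they gave names, exon lengths, chromosomes and promoter sequence only.

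Genes with a mean of at least 10 were tested on log2(normalised count + 1) with limma 3.58.1 (R 4.3.3, intensity trend, two-sided, Benjamini-Hochberg adjustment over all tested genes, threshold 0.05). Fold changes on this scale understate those of low genes. The genotype fit had no covariate, the N22 fit had genotype, and a fit with both and their product tested their interaction. EdgeR 4.0.16, DESeq2 1.42.0 and other settings were alternatives, and the fits were tested on simulated data. Members and lists were chosen with earlier results of these data known. The text names the 10 members, Top2b, 4 cerebellar markers, members of lists with the smallest unadjusted p or a call, a few members without one given as values, and the nearest profiles. A few genes that this rule would name are not reported here.

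The series text counts mice, so replicates were taken as mice. Both genotypes have replicates 1 to 3. The deviations of same-numbered libraries from their group means correlated at 0.33, 0.35 and 0.68, all above 0.1, so by the rule used the numbers pair the libraries. This pairing comes from the values only. Replicate 3 is the N22 library in both genotypes, so the N22 split alone could pass this rule. Top2b-low replicate 2 correlated with wild type replicate 1 at 0.37. Top2b-low replicate 1 correlated with wild type replicate 2 at 0.24, also above 0.1. The matching of replicates 1 and 2 is thus not settled. No 2 libraries of a group agreed within sampling noise (chi-square per degree of freedom 4.27 to 37.4).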

Additional observations from a re-analysis of the deposited data

How the results depend on the processing

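No alternative called a member between genotypes, over 22 alternatives each. The blocked fit (replicate block) changed no call of a member; Gad2 had an adjusted p of 0.515 and Nxph1 of 0.639 there. The genotype difference changed sign in some settings for 8 of the 10 members, and in none for Gad2 and Nxph1. Pvalb gave 0.03 in the main fit and −0.0063 with edgeR, −0.011 with DESeq2 and −0.044 outside N22, and Sst gave −0.0049 outside N22. With single libraries left out the differences ran from −0.080 to 0.011 for Gad1, −0.43 to 0.42 for Pvalb, −0.25 to 0.28 for Sst, −0.040 to 0.35 for Vip, −0.23 to 0.39 for Npy, −0.21 to 0.27 for Cck, −0.76 to 0.052 for Calb2, −0.27 to 0.018 for Lhx6, −0.24 to −0.10 for Gad2 and −0.25 to −0.17 for Nxph1. Leaving out replicate 3 of a genotype leaves an N22 library of the other without its counterpart. The number of genes called between genotypes was 0 in the main fit and 15 with DESeq2 and the replicate block. It was 15 with DESeq2 and an N22 term, a fit added after seeing the data. With single libraries left out it was 0 to 1.

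In N22 minus the other libraries 6 of the 8 calls (Pvalb, Sst, Vip, Npy, Cck and Calb2) held under all 16 alternatives. Lhx6 was also not called without limma's trend (adjusted p = 0.0583), nor Gad2 with no filter (0.0760), quantile normalisation (0.116), edgeR (0.0537), no trend (0.123) or no genotype term (0.106). Nxph1, near 0, turned to 0.046 with quantile normalisation and 0.013 with TMM or edgeR, and ran from −0.086 to 0.070 with single libraries left out. The number of genes called was 4864, against 2181 without limma's trend and 1702 to 4574 with single libraries left out. In the test of genotype by N22 it was 4, against 2 with a pseudocount of 5, 9 with a minimum mean of 50, 1 with edgeR, 23 with DESeq2 and 4824 with no filter. The cause of these changes was not tested. Of 378 recomputed list medians 7 moved by more than the larger SD within a genotype. Each genotype holds 1 N22 library, so that SD contains the N22 split, and the small count does not show that the medians are stable. With 3 mice per genotype, and 2 of 6 libraries apart from the rest, the genotype intervals without a covariate are wide for the genes that follow the N22 split: the SE of Pvalb was 0.46 there, 0.11 with an N22 term and 0.068 with the replicate block, and that of Calb2 0.42, 0.14 and 0.14.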
